A study of Mus musculus with 12 samples.

Results

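The genes described here encode the nuclear subunits of the mitochondrial respiratory chain and of ATP synthase, with some of their assembly factors. They were chosen by name alone: a probe set that names 1 gene was taken where the gene symbol starts with Nduf, Uqcr, Atp5 or Cox4 to Cox8, and where a gene had several, the brightest over the 12 arrays stood for it. This gave 86 of the 18194 genes measured: 42 of complex I, 8 of complex III, 19 of complex IV and 17 of ATP synthase, also called complex V. The arrays held 170 probe sets for these genes, and 38 of the genes had 1 probe set each. Of the genes, 80 lay above the median gene of the arrays and 68 had a mean log2 intensity of 10 or more. The 6 below the median gene were Cox4i2, Cox7a1, Cox7b2, Cox7c, Cox8b and Ndufb4. Genes with such symbols that were not analysed here include Cox7b, Ndufa11, Ndufb4b, Ndufb4c and Ndufs6.

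The respiratory chain passes electrons from NADH (complex I) and succinate (complex II) through ubiquinone, complex III and cytochrome c to oxygen (complex IV), and pumps protons across the inner mitochondrial membrane as it does so. ATP synthase lets the protons return through its membrane part, Fo, and makes ATP in its catalytic head, F1. The liver is rich in mitochondria, and most subunits come from nuclear genes like these, while a few come from the mitochondrial genome and have no place in this list.

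The study used liver RNA of 12 male mice of the 129J background, with 3 arrays of separate animals in each of 4 labelled groups: wild-type liver at 6 months (WT 6 months), liver of mice without Iqgap2 at 6 months (KO 6 months), wild-type liver at 24 months (WT 24 months) and hepatic tumors of mice without Iqgap2 at 24 months (KO 24 months tumor). The knockout is present in all cells of the animal, all mice ate a regular diet, and IQGAP2 is a scaffold protein of the liver whose loss leads to hepatocellular carcinoma with age. Values are log2 intensities, so a difference of 1 is a doubling, and array medians lay between 5.41 and 5.45. In liver tissue, fewer cells of a type and less RNA per cell cannot be told apart.

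The deleted gene did not follow 2 of the 4 labels. In WT 6 months Iqgap2 read 8.38, 8.24 and 8.33, and in KO 6 months 8.12, 8.68 and 8.07. It read 12.28, 12.30 and 11.92 in those labelled WT 24 months and 12.15, 12.05 and 12.15 in those labelled KO 24 months tumor. The arrays labelled WT 6 months were thus low in the gene that wild-type mice carry, and the arrays labelled KO 24 months tumor were high in the gene that the knockout lacks. Labels were kept as given, every group is named by its label, and directions by genotype, age or tumor rest on these labels. If these labels were to change places, the interaction of genotype and age would keep its value, and the other comparisons would keep their values under other names.

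One array stood apart from its group. In WT 24 months replicate 3 the markers of Kupffer cells, the macrophages of the liver, averaged 11.74, against 8.04 and 8.95 in the other 2 arrays of that label and 7.22 to 8.70 in the 9 arrays of the other labels. The subunits were lowest there within the group, and the part of these cells in the subunit values was not tested.

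Promoter sequence was available from RefSeq (GRCm38.p6) for 71 of the 86 genes, as 76 windows from 250 bases before to 50 bases after a start site. They were searched on both strands for the letters of 4 factors known to act on nuclear genes of the respiratory chain. The consensus of NRF1, whose letters are the capitals in the Uqcrc1 window, stood in 6 windows (7.89%, against 0.971% of all 32851 windows), and the ETS core bound by GABP (NRF-2), CCGGAAG, in 17 (22.4%, against 8.86%). That of YY1 stood in 4 windows, all of complex I (5.26%, against 0.986%), and the ERR alpha letters TCAAGGTCA in 1 (1.32%, against 0.423%). The median GC content was 58.5% in these windows and 52.7% in all. Among the 33 genes that were lower in WT 6 months than in at least 1 other group, 8 of 30 windows held CCGGAAG (26.7%), against 9 of 46 windows of the other genes (19.6%). Windows are shown for 3 genes on which the results turn, with the letters found in capitals: Cox6b2, which differed most and holds none of the 4 motifs, Uqcrh, the other gene that passed the interaction, which holds the ETS core on the opposite strand, and Uqcrc1, a core subunit with the NRF1 letters. They lie at chr7:4753045-4753344 (minus strand), chr4:116075021-116075320 (minus strand) and chr9:108936398-108936697 (plus strand).
Cox6b2: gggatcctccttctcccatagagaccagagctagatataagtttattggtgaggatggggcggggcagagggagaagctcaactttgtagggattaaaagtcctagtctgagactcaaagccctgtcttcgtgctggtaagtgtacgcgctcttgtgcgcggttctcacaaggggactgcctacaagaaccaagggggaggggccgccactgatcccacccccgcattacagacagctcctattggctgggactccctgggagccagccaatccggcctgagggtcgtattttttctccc
Uqcrh: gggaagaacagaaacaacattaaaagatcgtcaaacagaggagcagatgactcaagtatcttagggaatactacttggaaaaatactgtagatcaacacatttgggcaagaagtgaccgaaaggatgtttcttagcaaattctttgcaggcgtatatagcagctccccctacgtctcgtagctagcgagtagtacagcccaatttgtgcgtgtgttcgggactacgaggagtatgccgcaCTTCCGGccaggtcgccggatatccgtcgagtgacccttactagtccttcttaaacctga
Uqcrc1: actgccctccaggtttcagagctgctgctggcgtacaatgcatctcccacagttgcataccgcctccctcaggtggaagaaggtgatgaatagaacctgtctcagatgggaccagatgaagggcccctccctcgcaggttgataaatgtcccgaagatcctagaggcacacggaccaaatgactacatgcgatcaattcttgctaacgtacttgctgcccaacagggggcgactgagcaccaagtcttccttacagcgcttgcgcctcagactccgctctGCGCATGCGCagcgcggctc

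The main pattern was a lower level of many subunits in the arrays labelled WT 6 months. Of the 86 genes, 54 had their lowest group mean there, 22 in WT 24 months, 10 in KO 24 months tumor and none in KO 6 months. Over all genes, 38.0% were lowest in WT 6 months and 17.2% in KO 6 months, and genes with a mean log2 of 10 or more were not counted apart. Averaged over the 86 genes and taken relative to the mean of each gene over the 12 arrays, the log2 level was -0.17, -0.32 and -0.08 for the label WT 6 months. It was 0.14, 0.17 and 0.21 in KO 6 months, 0.04, -0.01 and -0.23 in WT 24 months, and 0.13, 0.09 and 0.03 in KO 24 months tumor. The arrays labelled WT 6 months thus overlapped those of neither KO group, but WT 24 months replicate 3 lay between them, below 2 of the 3 arrays. The means over all genes stayed within 0.02 of 0 in every array. Without Cox6b2, the gene with the largest difference, the values in WT 6 months were -0.15, -0.31 and -0.06.

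**Figure D1:**
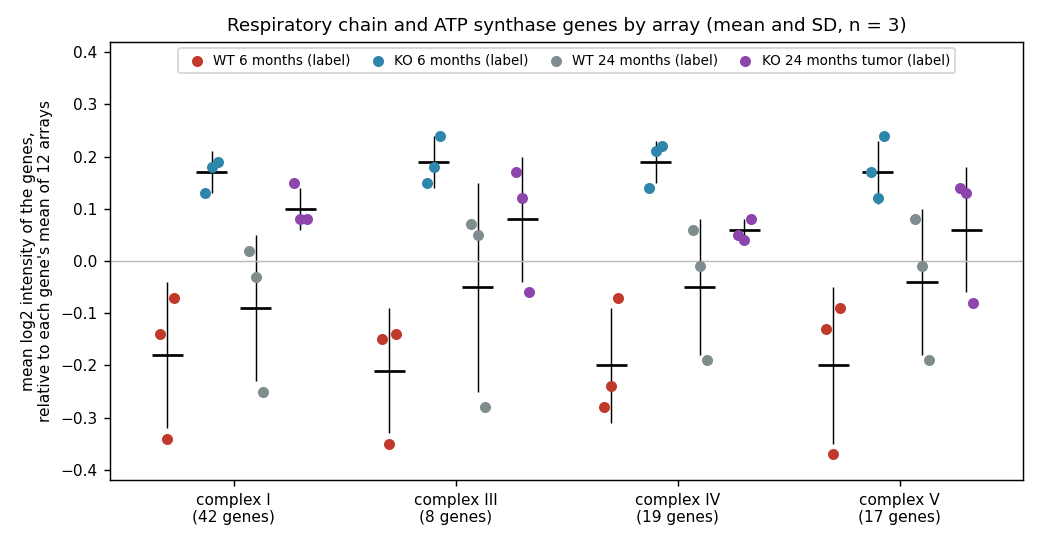
Mean log2 intensity of the genes of complexes I, III, IV and V in each of the 12 arrays, relative to the mean of each gene over all arrays (y axis, log2); points are arrays, coloured by label, and black bars are group means with SD (n = 3). In complex I the points of WT 6 months sit at -0.14, -0.34 and -0.07 and those of KO 6 months at 0.13, 0.18 and 0.19.

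In complex III the 3 arrays labelled WT 6 months read -0.15, -0.35 and -0.14, against 0.15, 0.18 and 0.24 in KO 6 months. In complex V they read -0.13, -0.37 and -0.09, against 0.17, 0.12 and 0.24. In complex IV they read -0.28, -0.24 and -0.07, against 0.14, 0.21 and 0.22, with Cox6b2 among its genes. Over the 11 genes of complex IV without the tissue isoforms, WT 6 months read -0.15, -0.25 and 0.01, KO 6 months 0.09, 0.12 and 0.18, and KO 24 months tumor 0.06, -0.01 and 0.10, so that WT 6 months replicate 3 overlapped the tumor arrays. Replicate 2 of WT 6 months was the lowest array in complexes I, III and V, and replicate 1 in complex IV. Replicate 3 of KO 24 months tumor stood under the other 2 of its group in complex III (-0.06, against 0.17 and 0.12) and in complex V (-0.08, against 0.14 and 0.13), but not in complexes I and IV. The small subunits Atp5e, Atp5mpl and Uqcr10 read 11.30, 11.35 and 11.35 in replicate 3, while the other 11 arrays held them between 11.63 and 12.46.

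**Figure D2:**
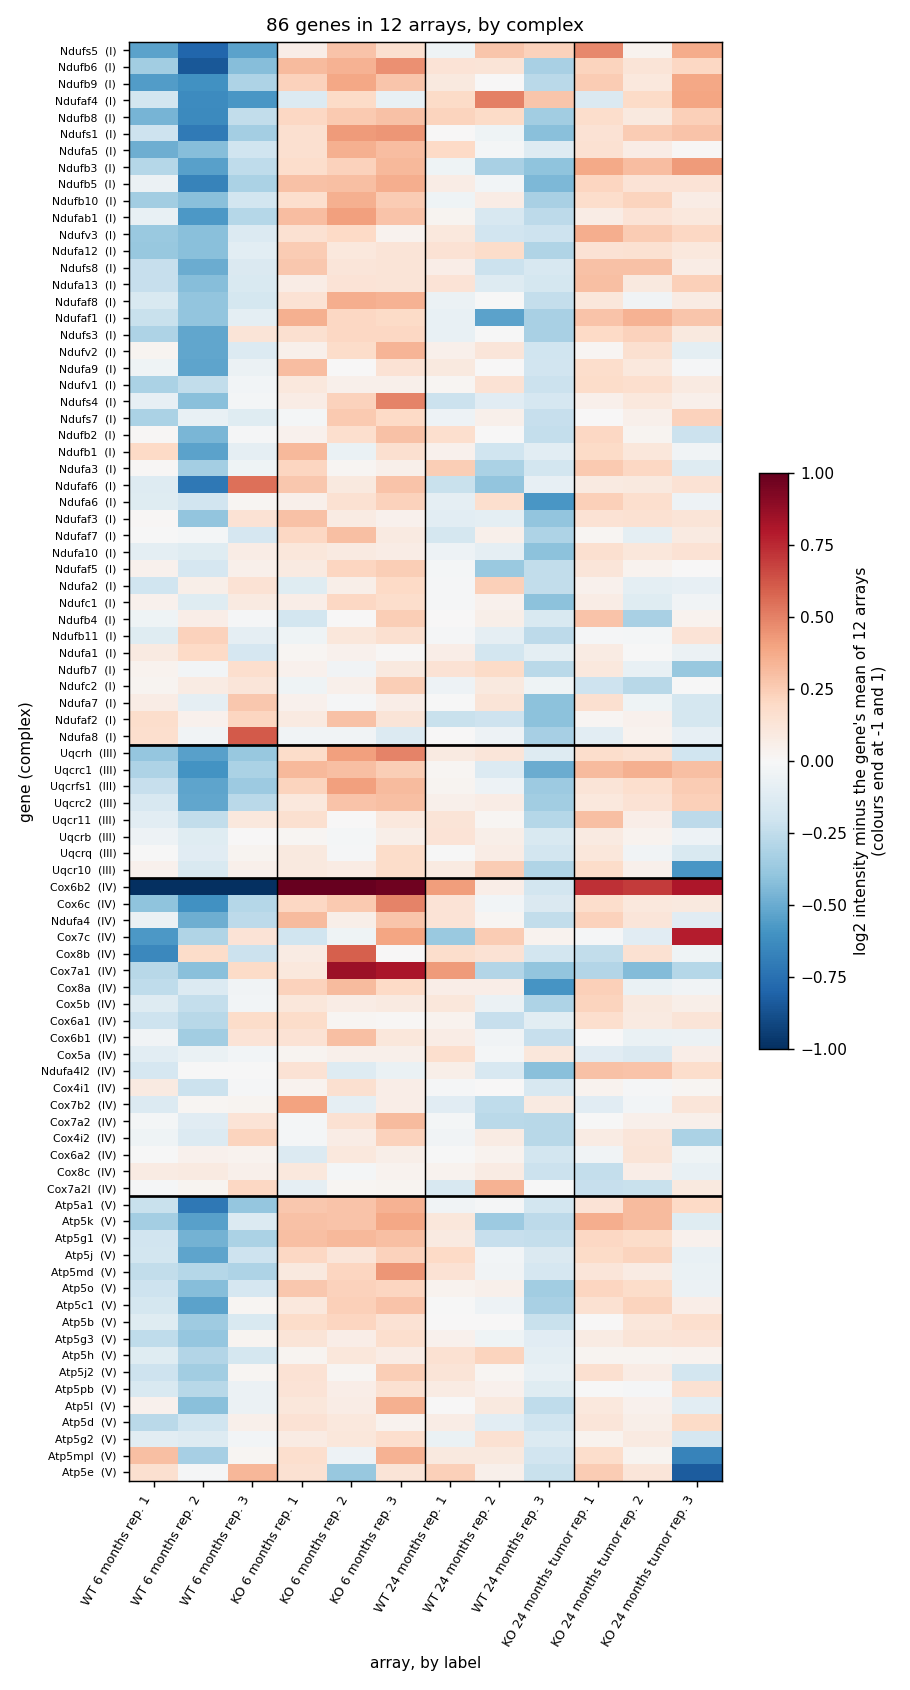
Log2 intensity of each of the 86 genes (rows, ordered within a complex by the level in WT 6 months) in each of the 12 arrays (columns), minus the mean of the gene over the arrays; red is higher, blue is lower, and colours end at -1 and 1. The 3 columns labelled WT 6 months are blue for most genes of the upper part of each complex, Cox6b2 passes the end of the scale there, and the column WT 24 months replicate 3 is blue for many genes as well.

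Between the labels of genotype at 6 months, 31 of the 86 genes were lower in WT 6 months than in KO 6 months and none was higher (adjusted p under 0.05 in limma, Benjamini-Hochberg over all 18194 genes). That is 36.0% of the list, against 9.00% of all genes called lower and 8.04% called higher. Bright genes were called more often in these arrays, so the same was counted among the genes with a mean log2 of 10 or more: 29 of 68 subunit genes (42.6%) were lower, against 18.5% of all 2076. The median log2 difference was -0.31 over the list and -0.05 over all genes, and 78 of 86 differences were below 0, as were 57.1% over all genes. The 3 arrays of WT 6 months lay entirely under the 3 of KO 6 months for 53 of the genes, and for 22.1% of all genes. With arrays centred on 4 housekeeping genes, which moves the median of all genes from -0.05 to 0.06, 7 genes of the list were lower and none higher, against 4.06% of all genes lower and 8.20% higher. Of the differences as first computed, 18 genes reached 1.5-fold or more and 1, Cox6b2, 2-fold or more. The number rested in part on 1 array, and without WT 6 months replicate 2 it was 18. The same 18 genes were called in each of the 12 fits that left out 1 array.

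Complex I accounted for 17 of the 31 genes, from 42 measured. In this complex, 16 of 33 genes with a mean log2 of 10 or more were lower (48.5%), against 18.5% of all such genes. Its core subunits carry the flavin and the iron-sulfur clusters that take electrons from NADH to ubiquinone. Ndufs1, the large iron-sulfur subunit, read 10.50 and 10.37 in replicates 1 and 3 of WT 6 months and lower still in replicate 2, a mean of 10.29 ± 0.26 (SD, n = 3), and 10.87, 11.13 and 11.15 in KO 6 months. All 3 arrays of the first group were under the second, and the difference was -0.76 (SE 0.15, limma adjusted p = 0.00562), or 1.70-fold. Ndufs8, another iron-sulfur subunit, read 12.26, 11.99 and 12.34 against 12.76, 12.61 and 12.62, again without overlap (-0.46, SE 0.12, adjusted p = 0.0219). The 4 other core subunits measured did not pass: Ndufs3 differed by -0.43 (SE 0.15), Ndufs7 by -0.32 (SE 0.12), Ndufv1, which binds NADH, by -0.27 (SE 0.11), and Ndufv2, its partner, by -0.40 (SE 0.15), with adjusted p from 0.0750 to 0.131. All 6 were below 0, as were 57.1% of all genes. None overlapped between the groups, and 22.1% of all genes also had WT 6 months entirely under KO 6 months.

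Of the 28 accessory subunits of complex I, 13 were lower in WT 6 months than in KO 6 months. Ndufb6, of the membrane arm, read 11.46, 10.96 and 11.38 against 12.12, 12.15 and 12.26, the largest difference of the complex (-0.91, SE 0.15, adjusted p = 0.00194). Its other probe set (mean log2 11.67) differed by -0.45. Ndufb9, a membrane arm subunit that binds the acyl carrier protein, read 12.32, 12.28 and 12.57 against 13.11, 13.27 and 13.16 (-0.79, SE 0.13, adjusted p = 0.0015). Ndufs5, a small subunit on the outer face of the membrane arm, read 10.36, 10.10 and 10.36 against 10.96, 11.18 and 11.05 (-0.79, SE 0.14, adjusted p = 0.00263). In all 3 genes the groups were clear of each other by more than the spread within them. Ndufab1, the mitochondrial acyl carrier protein itself, also differed (-0.64, SE 0.13, adjusted p = 0.00511), and so did Ndufb3, Ndufb5, Ndufb8, Ndufb10, Ndufa5, Ndufa12, Ndufa13, Ndufs4 and Ndufv3, by -0.39 to -0.70. Other accessory subunits did not pass: Ndufa1 differed by 0.02 (95% interval -0.22 to 0.26), Ndufb7 by 0.02 (-0.30 to 0.35) and Ndufc2 by -0.01 (-0.25 to 0.23). Other bright probe sets of the last 2 genes lay lower, at -0.34 for Ndufb7 and at -0.34 and -0.41 for Ndufc2, so their values depend on the probe set. Ndufa8 had the highest difference of the list, 0.32 (SE 0.15, adjusted p = 0.177), with WT 6 months at 12.27, 12.06 and 12.71 just above KO 6 months at 12.06, 12.06 and 11.96. Of the 8 assembly factors, which build the complex and are not part of it, Ndufaf1 (-0.49, SE 0.12, adjusted p = 0.0188) and Ndufaf8 (-0.53, SE 0.11, adjusted p = 0.00641) were lower. These were 25.0% of the 8, against 9.00% of all genes.

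In complex III, 4 of 8 subunits were lower in WT 6 months than in KO 6 months. Uqcrc1 and Uqcrc2 are the large core proteins and Uqcrfs1 is the Rieske iron-sulfur protein. Uqcrc1 read 11.59, 11.30 and 11.58 against 12.22, 12.20 and 12.14 (-0.70, SE 0.13, adjusted p = 0.00382). Uqcrc2 read 11.87, 11.51 and 11.76 against 12.13, 12.31 and 12.33 (-0.54, SE 0.13, adjusted p = 0.0177), and Uqcrfs1 read 12.26, 11.96 and 12.13 against 12.71, 12.90 and 12.81 (-0.69, SE 0.12, adjusted p = 0.00255). These 3 were without overlap between the groups, WT 6 months lower, as were 22.1% of all genes. The other probe set of Uqcrc2 (mean log2 11.82) differed by -0.21. Uqcrh, the hinge protein that helps cytochrome c1 meet cytochrome c, read 11.92, 11.76 and 11.93 against 12.49, 12.72 and 12.80 (-0.80, SE 0.13, adjusted p = 0.00173), and its second probe set differed by -0.66. The 4 other small subunits did not pass: Uqcrb differed by -0.07 (95% interval -0.28 to 0.14), Uqcrq by -0.12 (-0.35 to 0.12), Uqcr10 by -0.14 (-0.56 to 0.28) and Uqcr11 by -0.17 (-0.51 to 0.17). The other 2 probe sets of Uqcr10, which are less bright, differed by -0.68 and -0.47.

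In complex IV, 3 of 19 genes were lower in WT 6 months than in KO 6 months: Cox6b2, Cox6c and Ndufa4. Among those with a mean log2 of 10 or more it was 2 of 10, a share near the 18.5% of all such genes, and the median difference of the complex was -0.17, against -0.33 to -0.36 in the other 3 complexes. This median includes 8 tissue isoforms, several of them dim, which had a median of -0.12. The 10 other subunits, Cox7a2l not counted, had a median of -0.25, and all 10 were below 0. Cox6c, a subunit on the membrane side of cytochrome c oxidase, read 12.57, 12.37 and 12.69 against 13.18, 13.24 and 13.47 (-0.75, SE 0.12, adjusted p = 0.00133). Ndufa4, long counted with complex I and now with cytochrome c oxidase, read 12.76, 12.33 and 12.56 against 13.14, 12.88 and 13.10 (-0.49, SE 0.15, adjusted p = 0.0388). The subunits Cox4i1, Cox5a and Cox5b, present in every tissue, did not pass: Cox4i1 differed by -0.13 (95% interval -0.35 to 0.08), Cox5a by -0.11 (-0.30 to 0.09) and Cox5b by -0.22 (-0.47 to 0.02). The other 2 probe sets of Cox5a differed by -0.04 and -0.45, and the other probe sets of Cox5b by -0.16 to -0.43. The forms common in liver, Cox6a1 (-0.17, -0.45 to 0.10), Cox6b1 (-0.27, -0.55 to 0.01), Cox7a2 (-0.15, -0.40 to 0.10) and Cox8a (-0.38, -0.75 to -0.02), did not pass either, and nor did Cox7a2l, which joins complexes III and IV into supercomplexes (0.09, -0.21 to 0.40).

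Several subunits of complex IV exist in a common form and in one that is best known from another tissue, and Cox6b2, the testis form of Cox6b1, differed more than any other gene of the list. It read 5.46, 6.44 and 6.26 in WT 6 months, 9.01, 9.11 and 8.93 in KO 6 months, 8.38, 8.03 and 7.78 in WT 24 months and 8.69, 8.66 and 8.77 in KO 24 months tumor. The arrays labelled WT 6 months were far under all 9 others, and WT 24 months lay under both KO groups without overlap. The log2 differences of WT 6 months were -2.96 against KO 6 months (SE 0.22, adjusted p = 8.94e-06), -2.01 against WT 24 months (adjusted p = 0.000161) and -2.66 against KO 24 months tumor (adjusted p = 1.82e-05), or 7.80-fold in the first. Cox6b1 read 13.43, 13.12 and 13.60 in WT 6 months and 13.61, 13.77 and 13.58 in KO 6 months, which overlap. One probe set measured Cox6b2, so no second one bears on it. The 7 other tissue isoforms did not pass in any comparison. Among them Cox7a1, the heart and muscle form, read 5.22, 5.08 and 5.69 in WT 6 months, 5.60, 6.35 and 6.31 in KO 6 months, 5.92, 5.20 and 5.10 in WT 24 months and 5.20, 5.06 and 5.21 in KO 24 months tumor (-0.76 for WT 6 months against KO 6 months, SE 0.25, adjusted p = 0.0592). Cox4i2, Cox6a2, Cox7b2, Cox8b, Cox8c and Ndufa4l2 stayed within 0.45 of 0 in this comparison.

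In complex V, 7 of 17 subunits were lower in WT 6 months than in KO 6 months. That is 41.2%, against 18.5% of all genes with a mean log2 of 10 or more, which all 17 have. Atp5a1, the alpha subunit of F1, read 13.03, 12.54 and 12.87 against 13.52, 13.54 and 13.60 (-0.74, SE 0.12, adjusted p = 0.00185). Its other probe sets differed by -0.20 (mean log2 12.94) and -0.54 (mean log2 6.46), so its size depends on the probe set. Atp5b, the catalytic beta subunit, read 13.54, 13.31 and 13.51 against 13.85, 13.88 and 13.81 (-0.39, SE 0.10, adjusted p = 0.020). The other 3 subunits of F1 did not pass: Atp5c1 (gamma) differed by -0.44 (SE 0.14, adjusted p = 0.0545), Atp5d (delta) by -0.23 and Atp5e (epsilon) by 0.19. In Fo and the stalks, Atp5g1, one of 3 genes for the same c subunit of the rotor ring, read 12.07, 11.79 and 11.94 against 12.56, 12.58 and 12.56 (-0.63, SE 0.11, adjusted p = 0.00292). The other c subunit genes, Atp5g2 (-0.21, SE 0.10) and Atp5g3 (-0.33, SE 0.11), did not pass. Atp5k (subunit e, -0.66), Atp5md (DAPIT, -0.53), Atp5o (OSCP, which ties the stalk to F1, -0.51) and Atp5j (F6, -0.49) were lower, with adjusted p from 0.00888 to 0.0220. A second probe set of Atp5g1 is dim (mean log2 3.45) and differed by 0.12.

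**Figure D3:**
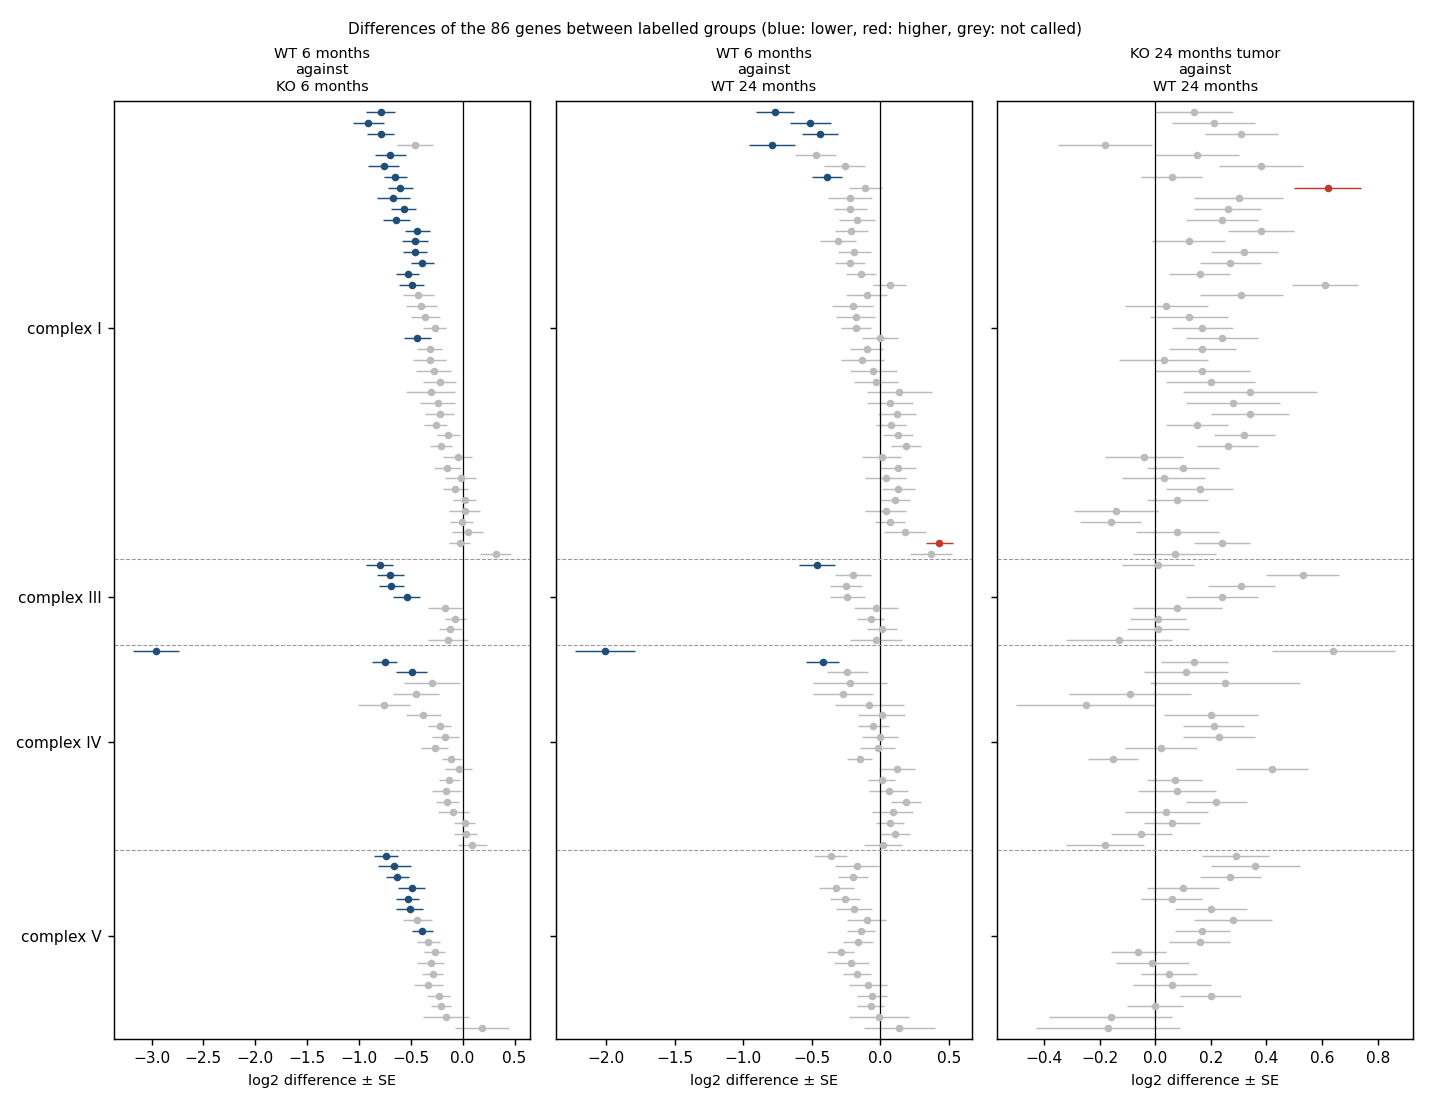
Log2 difference of each of the 86 genes with its SE (x axis) in 3 comparisons; each line is a gene, in the same order as in the plot of all genes and arrays, blue is lower and red is higher at an adjusted p under 0.05, grey is not called, and the x axes have different ranges. The number of blue genes is 31 in WT 6 months against KO 6 months, 8 against WT 24 months and 0 in KO 24 months tumor against WT 24 months, which has 1 red gene.

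Between the labels of age in wild-type mice, 8 of 86 genes were lower in WT 6 months than in WT 24 months and 1 was higher. The share lower, 9.30%, was near the background of 6.22% of all genes, and among genes with a mean log2 of 10 or more 6 of 68 (8.82%) were lower, against 12.6%. The median difference was -0.10 over the list and -0.01 over all genes, but 0.05 and 0.13 when arrays were centred on housekeeping genes, with 3 genes of the list lower, and 3.38% of all genes lower and 8.18% higher. Left out in turn, 10 of the 12 arrays gave 3 to 5 genes lower, and Cox6b2, Ndufaf4 and Ndufs5 passed in every such fit. The 8 were Cox6b2, Cox6c, Ndufa5, Ndufaf4, Ndufb6, Ndufb9, Ndufs5 and Uqcrh, and all except Ndufaf4 were also lower than in KO 6 months and in KO 24 months tumor. Ndufs5 read 10.85, 11.17 and 11.12 in WT 24 months, against 10.36, 10.10 and 10.36 in WT 6 months (-0.77, SE 0.14, adjusted p = 0.00346). Ndufaf4, an early assembly factor, read 8.84, 8.40 and 8.44 in WT 6 months and 9.22, 9.53 and 9.30 in WT 24 months (-0.79, SE 0.17, adjusted p = 0.00925). Cox6c (-0.42, adjusted p = 0.0360), Ndufa5 (-0.39, adjusted p = 0.0463), Ndufb6 (-0.51, adjusted p = 0.0452), Ndufb9 (-0.44, adjusted p = 0.0419) and Uqcrh (-0.46, adjusted p = 0.0366) passed narrowly, and a second probe set of Ndufb9 that lies near background differed by 0.08.

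The gene that was higher in WT 6 months than in WT 24 months was Ndufaf2, an assembly factor related to Ndufa12. It read 8.45, 8.32 and 8.49 in WT 6 months, 8.36, 8.57 and 8.40 in KO 6 months, 8.05, 8.07 and 7.86 in WT 24 months and 8.29, 8.32 and 8.10 in KO 24 months tumor. WT 24 months was the lowest group, and the difference from WT 6 months was 0.43 (SE 0.10, adjusted p = 0.0192), against a background of 7.07% of all genes called higher. Its call was lost without WT 6 months replicate 1 or 3 or WT 24 months replicate 3. Without WT 24 months replicate 3, the array rich in Kupffer cell markers, 11 genes of the list were lower in WT 6 months than in WT 24 months and none was higher.

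Between the labels of genotype at 24 months, Ndufb3 was the only gene of the list that passed. It read 11.39, 11.32 and 11.44 in KO 24 months tumor and 10.97, 10.69 and 10.61 in WT 24 months (0.62, SE 0.12, limma adjusted p = 0.0460), and it was lower in WT 6 months than in both KO groups. Its share of the list, 1.16%, stands beside 0.341% of all genes called higher. No gene of the list was lower, against 0.231% of all genes, while 19 of the 86 had an unadjusted p under 0.05 in limma in either direction (22.1%, against 17.1% of all genes). The median difference was 0.15 over the list and 0.04 over all genes. The 3 tumor arrays lay above all 3 arrays of WT 24 months for 27 genes of the list and below for none, against 14.0% and 7.83% of all genes. Ndufaf1 (0.61, SE 0.12, adjusted p = 0.0562) and Uqcrc1 (0.53, SE 0.13, adjusted p = 0.0972) came next by adjusted p. The call of Ndufb3 was lost in 10 of the 12 fits without 1 array, with an adjusted p of 0.0106 to 0.150 over the 12, and without WT 24 months replicate 1 the number higher was 5: Ndufa4l2, Ndufaf1, Ndufb3, Ndufv3 and Uqcrc1. Without WT 24 months replicate 3 it was 0 and the median of the list was 0.07. Centred on housekeeping genes it was 0 as well, with 0.242% of all genes higher and 0.511% lower.

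Between the labels of age in knockout mice, no gene of the list passed (limma, adjusted p under 0.05), and 3 had an unadjusted p under 0.05 (3.49%, against 6.03% of all genes). Over all genes 0.0330% were called higher and 0% lower. The median difference of KO 24 months tumor from KO 6 months was -0.10 over the list and 0.00 over all genes, and the extremes of the list were -0.93 for Cox7a1 (SE 0.25, adjusted p = 0.452) and 0.26 for Ndufa4l2. A p that misses the threshold does not show that the groups are alike. For Uqcrh the 95% interval was -0.61 to -0.03.

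The arrays labelled WT 6 months were also set against those labelled KO 24 months tumor, since Iqgap2 was at odds with both labels. Here 27 of 86 genes were lower and none higher (31.4%, against 10.7% of all genes lower and 8.99% higher), 17 of them in complex I, 4 in complex III, 2 in complex IV and 4 in complex V. Among genes with a mean log2 of 10 or more, 24 of 68 (35.3%) were lower, against 21.4%. By complex these were 15 of 33 in complex I, 4 of 8 in complex III, 1 of 10 in complex IV and 4 of 17 in complex V. The shares of complexes I and III were thus above the background, that of complex V was near it and that of complex IV was under it. The medians were -0.24 over the list and -0.05 over all genes, and the groups lay clear of each other, WT 6 months lower, for 42 genes of the list and 23.8% of all genes. The largest falls of each complex were Ndufs5 (-0.91, SE 0.14, adjusted p = 0.000936), Uqcrc1 (-0.73, SE 0.13, adjusted p = 0.00267), Cox6b2 and Atp5a1 (-0.66, SE 0.12, adjusted p = 0.00324). The other probe sets of Atp5a1 differed by -0.16 (bright) and -0.44 (dim). Ndufv1 passed here by -0.35 (adjusted p = 0.0494). Both this comparison and the one with KO 6 months use the arrays of WT 6 months, so the 25 genes lower in both are not 2 independent findings. Without WT 6 months replicate 2 the number lower was 13, without KO 24 months tumor replicate 1 it was 15 and without replicate 2 it was 16. Centred on housekeeping genes, 2 genes of the list were lower, with 4.01% of all genes lower and 9.72% higher.

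**Figure D4:**
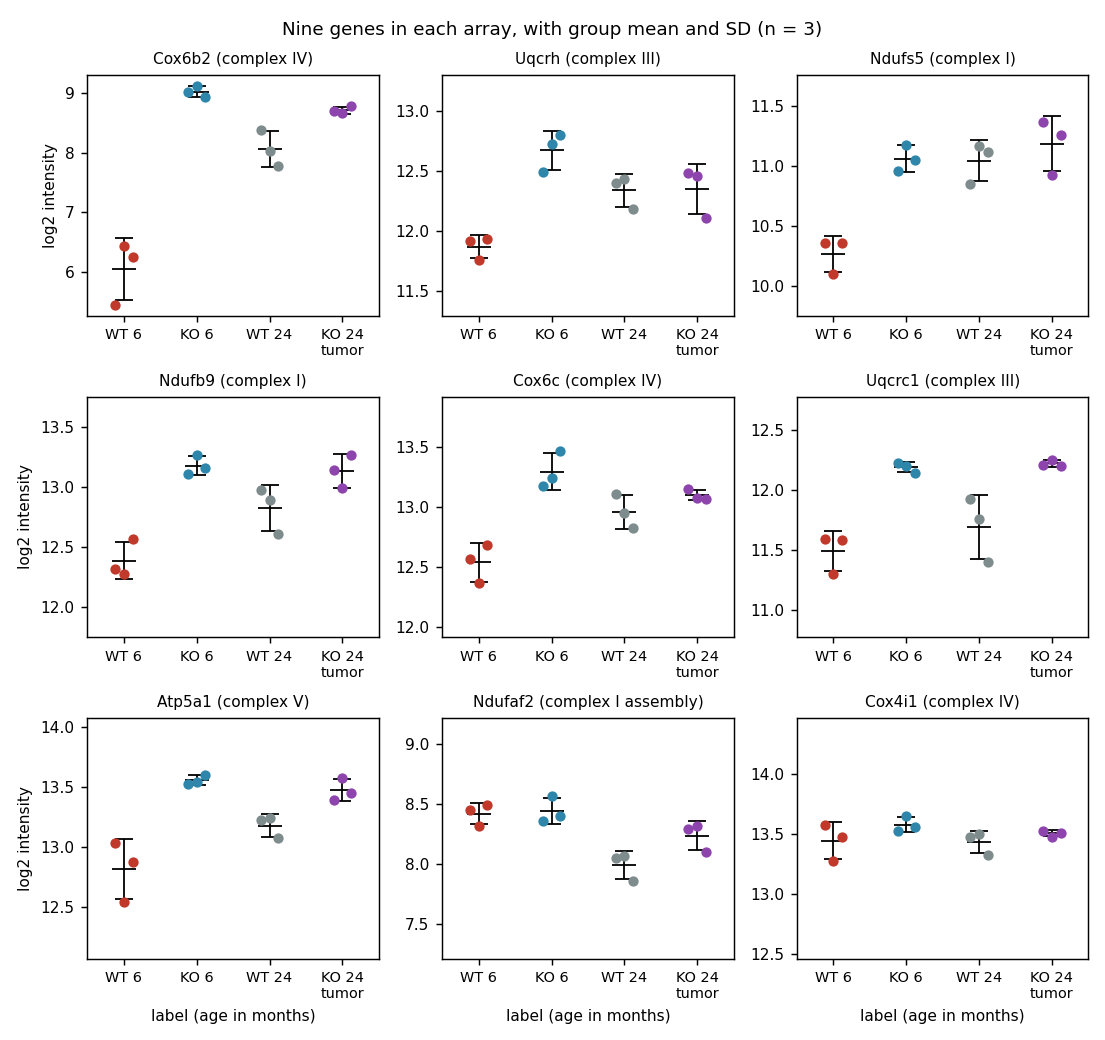
Log2 intensity (y axis, each panel on its own range) of 9 genes in each of the 12 arrays by label, with group mean and SD (n = 3). Cox6b2 sits between 5.46 and 6.44 in WT 6 months and between 7.78 and 9.11 elsewhere, Uqcrc1 is low in WT 6 months and in WT 24 months replicate 3, Ndufaf2 is lowest in WT 24 months, and Cox4i1 overlaps between WT 6 months and each other group.

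The interaction asks whether the difference by age is the same in both genotypes: it is KO 24 months tumor minus KO 6 months, less WT 24 months minus WT 6 months. Cox6b2 had an interaction of -2.32 (SE 0.32, limma adjusted p = 0.00158), since it differed by -0.31 with age in the KO labels while WT 6 months stood at 6.05 ± 0.52 (SD, n = 3) and WT 24 months at 8.06 ± 0.30 (SD, n = 3). Uqcrh had one of -0.78 (SE 0.18, adjusted p = 0.0332), with 12.35 ± 0.21 (SD, n = 3) in KO 24 months tumor and 12.67 ± 0.17 (SD, n = 3) in KO 6 months against 12.34 ± 0.14 (SD, n = 3) in WT 24 months and 11.87 ± 0.09 (SD, n = 3) in WT 6 months. These 2 of 86 genes (2.33%) stand beside 2.24% of all genes called lower and 2.59% called higher, so the share is that of the background. The median was -0.17 over the list and 0.00 over all genes. Cox6b2 passed in each of the 12 fits without 1 array. Uqcrh passed in 4 of them, and without WT 24 months replicate 3 the number was 6, with Cox6c, Ndufa5, Ndufb6 and Ndufb8 added.

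Genes that work beside these complexes were counted from lists of general knowledge, and the counts stand beside 9.00% of all genes lower and 8.04% higher, or 18.5% lower among genes with a mean log2 of 10 or more. Of complex II, succinate dehydrogenase, 3 of 4 genes were lower in WT 6 months than in KO 6 months (median -0.53), with Sdhb, its iron-sulfur subunit, at -1.36 (SE 0.19, adjusted p = 0.000631). Of the genes for ubiquinone synthesis and electron carriers, 6 of 11 were lower (median -0.42), among them Etfdh, which hands electrons from fatty acid oxidation to ubiquinone (-0.75, SE 0.13, adjusted p = 0.00246). Of the assembly factors of cytochrome c oxidase 4 of 12 were lower (median -0.26), and of the mitochondrial ribosome, which makes the mitochondrially encoded subunits, 23 of 76 were lower and 2 higher (median -0.23). Among regulators of mitochondrial biogenesis 3 of 15 were lower: the coactivator Ppargc1b (-1.63, SE 0.27, adjusted p = 0.00191), the mitochondrial DNA factor Tfam (-0.54, SE 0.12, adjusted p = 0.00913) and Polg2. That share was near the 18.5% of bright genes, but the mean of this list was under 10 in every array. The share lay above the 9.00% of all genes, which include many dimmer ones, and no share was counted at the brightness of this list. None of 6 carriers and porins of the mitochondrial membranes passed (median -0.02) and 1 of 15 import factors and chaperones did (median -0.10). The citric acid cycle was mixed, with 2 of 12 genes higher and 3 lower. Cs, citrate synthase, was higher by 1.13 (SE 0.13, adjusted p = 0.000199) and Idh3a, of isocitrate dehydrogenase, by 1.60 (SE 0.15, adjusted p = 3.53e-05), while Fh1, fumarase, was lower (-0.98, SE 0.15, adjusted p = 0.00133).

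Atpif1, which binds and inhibits ATP synthase when the proton gradient fails, was measured as well. It read 9.71, 9.51 and 10.38 in WT 6 months, 9.14, 9.16 and 9.23 in KO 6 months, 8.97, 8.98 and 9.34 in WT 24 months and 8.79, 8.27 and 8.93 in KO 24 months tumor. All 3 arrays of WT 6 months were above the 9 others. The difference was 1.20 against KO 24 months tumor (SE 0.22, limma adjusted p = 0.00336), 0.76 against WT 24 months (SE 0.22, adjusted p = 0.0440) and 0.69 against KO 6 months (SE 0.22, adjusted p = 0.0563).

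Markers of some cell types moved with the same group. Hepatocyte markers, which identify the tissue as liver, averaged 13.56 to 14.02 in WT 6 months and 14.31 to 14.51 in the other 9 arrays, and 3 of 9 were lower in WT 6 months than in KO 6 months (Apoc3, Tat and Cps1). Their median difference was -0.08, near the -0.05 of all genes, so the lower means came from part of the list. Markers of the sinusoidal endothelium averaged 6.62 to 7.28 in WT 6 months and 7.82 to 9.14 elsewhere, with 8 of 10 lower than in KO 6 months. Markers of stellate cells and fibroblasts averaged 6.38 to 7.14 and 7.47 to 8.07, with 4 of 9 lower. Kupffer cell markers had 0 of 8 lower than in KO 6 months (median 0.45), biliary markers 1 of 5 and lymphocyte markers 1 of 6. These counts stand beside 9.00% of all genes lower, or 18.5% of those with a mean log2 of 10 or more. Markers of skeletal and cardiac muscle, a tissue rich in some of these isoforms, lay between 4.69 and 4.90 in all 12 arrays, and they had no call in any comparison. The 4 markers of brown fat had none either, but their means lay at 4.56 to 5.74 in WT 6 months and 5.83 to 6.31 in KO 6 months, and at 3.87 to 5.54 in WT 24 months and 6.04 to 6.10 in KO 24 months tumor, without overlap within each pair. Their median difference was only -0.09 for WT 6 months against KO 6 months and 0.22 for KO 24 months tumor against WT 24 months. The gaps between the means thus came from part of the list. What part the cell composition had in the subunit values was not tested.

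Of the 31 genes lower in WT 6 months than in KO 6 months, 17 had several probe sets, and in 15 of these all probe sets had the same sign, the exceptions being Atp5g1, through a dim probe set, and Ndufs4, through 2 less bright ones. The same sign did not mean the same size, as in Atp5a1, Ndufb6 and Uqcrc2. Over all 48 genes of the list with several probe sets, the signs differed in 10 in this comparison and in 19 in KO 24 months tumor against WT 24 months. Cox7c and Ndufb4, subunits found in every tissue, were represented by dim probe sets (5.23 to 6.59 and 3.72 to 4.33 over the 12 arrays), and their values say little of these genes.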

How the data were processed

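Each of 12 Affymetrix mouse arrays measured total RNA of 1 liver or hepatic tumor, with 3 animals per group. The authors deposited log2 intensities made by RMA in R, which corrects background, equalizes the distributions of the arrays and summarizes each of 45101 probe sets, so changes shared by most genes are removed. Of the probe sets 34958 name 1 gene, 932 several and 9211 none in the annotation used, and the first gave 18194 genes. Groups came from the labels. Differences were fitted with limma 3.58.1 (R 4.3.3) to 4 group means over all genes, tested on simulated data first, and called at a Benjamini-Hochberg adjusted p under 0.05 without a fold. The study's SAM test was not used, because it rests on permuted labels, and its fold of 3 was an alternative. With 3 arrays against 3, an exact permutation test cannot give a p below 0.1. The number of arrays limits the precision. The genes named are, per complex and comparison, up to 4 largest called changes, all called where few passed, the core subunits and the tissue isoforms. Others, such as small subunits that did not pass, were named after their values were seen. Members, lists and comparisons were chosen with earlier results of these data known. Alternatives changed probe set choice, filters, scaling, variance prior, samples and fold. Figures were drawn with matplotlib 3.10.9.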

Additional observations from a re-analysis of the deposited data

Results flagged for a closer look

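The effect of age differed between the genotype labels for Cox6b2, with an interaction of -2.32 on the log2 scale, and for Uqcrh, with an interaction of -0.78, both by the interaction term of limma at an adjusted p under 0.05. The arrays labelled WT 6 months, whose Iqgap2 level was at odds with their label, enter both values. The groups hold 3 arrays each, so no test for a single array far from its group was made.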

How the results depend on the processing

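Called values of genes kept their sign under the alternatives run gene by gene. Single probe sets of Atp5g1, Ndufab1, Ndufb9, Ndufs4 and Ndufs8 differed in sign from the ones used. The 31 genes lower in WT 6 months than in KO 6 months became 7 with arrays centred on housekeeping genes (of these, Hprt was called higher in WT 6 months than in each other group, Gapdh lower than in WT 24 months and KO 24 months tumor, and Gusb lower than in WT 24 months) and 1 with a fold of 3 or 2 required. The 27 lower than in KO 24 months tumor became 2, 1 and 1 in the same settings. The 8 lower than in WT 24 months became 3 with only the groups compared, 3 with the replicate block, 5 with median centring, 3 with housekeeping centring and 1 with a fold of 3 or 2, and the 1 higher became 0 with only the groups compared, housekeeping centring and either fold. The 1 gene higher in KO 24 months tumor than in WT 24 months became 0 with every probe set, only the groups compared, the replicate block, housekeeping centring, a trended and robust prior and either fold, and 2 with dim genes removed. The 2 interactions became 4 with the mean of the probe sets of a gene, 1 with the replicate block and 1 with housekeeping centring. Causes of these moves were not tested. With 1 array left out, the numbers lower in WT 6 months were 18 to 35 against KO 6 months, 13 to 29 against KO 24 months tumor and 3 to 11 against WT 24 months (0 to 1 higher), those higher in the tumor against WT 24 months 0 to 5, and the interactions 1 to 6. Of values of named genes in these fits, 2820 kept their side of the threshold, 113 lost and 19 gained a call. Arrays that share a replicate number did not deviate together (18 pairs, r from -0.157 to 0.185, 2 over 0.1), so the numbers were not taken as pairs. With the block, 30 and 22 genes were lower in WT 6 months than in KO 6 months and KO 24 months tumor, and the adjusted p of the Uqcrh interaction was 0.0610. Signal over background limits Cox7c, Ndufb4 and the dim tissue isoforms.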
